A study of Mus musculus with 6 samples.

Results

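Whey is the fluid that remains of milk once casein has curdled, and the genes described here encode secreted milk proteins that are not caseins, together with the folate receptor. The list named 9 genes, Wap, Wfdc18, Lalba, Glycam1, Cel, Ltf, Trf, Folr1 and Pigr, and a probe set was used where the platform annotation gave it 1 gene of that list and no other. This left 9 probe sets for 8 genes, of 8251 genes that the array measured in this way. Folr1 had a pair of probe sets, the other genes had 1 each, and Trf, the iron carrier transferrin, had none and is not analysed here.

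RNA came from thoracic mammary glands of virgin mice, 16 weeks old, of an F1 CF-1/FVB background. The LH transgenic mice overexpress luteinizing hormone (LH), a pituitary hormone that drives the ovary to make sex steroids, and the wild type mice of the same background and age were their controls. There were 3 Affymetrix arrays per group. A single array received the combined RNA of 3 mice, none of them shared with another pool, which makes 9 mice per group. The sources used here do not give the promoter that drives the transgene or the number of founder lines. Pooled RNA cannot show how mice within a pool differ, so the SD over 3 pools understates the spread between animals.

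Milk proteins are made by the alveolar epithelium, the secretory cells at the ends of the mammary ducts. Many of their genes are known to be switched on in stages over pregnancy and lactation by prolactin, acting through the transcription factor STAT5, together with glucocorticoids. The ETS factor ELF5 is required for alveolar cells to form. The whey proteins differ in task: whey acidic protein and its relatives carry a fold found in protease inhibitors, alpha-lactalbumin makes lactose synthesis possible, lactoferrin and transferrin bind iron, bile salt-stimulated lipase digests milk fat in the infant gut, and the polymeric immunoglobulin receptor carries antibodies into milk.

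Since prolactin, steroid and ETS signals act through sites near gene starts, the 250 bases upstream of the start are shown for 4 genes that stand for different roles and that bear the motifs searched. They were taken from RefSeq for build GRCm38.p6, where 7 of the 9 genes had an entry, and they are written 5′ to 3′ on the strand of the gene. Capitals mark matches to TTCNNNGAA (the spacing that STAT factors bind), AGGAAG (which holds the GGAA core of ETS sites) or TGTTCT (an element of steroid receptor sites), each searched on both strands, so that CTTCCT and AGAACA are the last 2 read from the other strand. The regions are chr11:6638650-6638899 for Wap, chr15:98482684-98482933 for Lalba and chr15:103565082-103565331 for Glycam1, all on the minus strand, and chr1:130826434-130826683 for Pigr on the plus strand. For Lalba and Wap the start used for the window differs from that of the gene span given further below. The Lalba window lies inside the Lalba span, chr15:98480400-98482934. The Wap window overlaps the end of the Wap span, chr11:6635483-6638654.
Wap: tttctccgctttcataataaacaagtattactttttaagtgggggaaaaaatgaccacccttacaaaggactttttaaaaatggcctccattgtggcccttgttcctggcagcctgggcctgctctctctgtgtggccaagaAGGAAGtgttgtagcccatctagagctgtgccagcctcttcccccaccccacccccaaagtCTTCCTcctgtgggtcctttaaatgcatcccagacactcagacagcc
Lalba: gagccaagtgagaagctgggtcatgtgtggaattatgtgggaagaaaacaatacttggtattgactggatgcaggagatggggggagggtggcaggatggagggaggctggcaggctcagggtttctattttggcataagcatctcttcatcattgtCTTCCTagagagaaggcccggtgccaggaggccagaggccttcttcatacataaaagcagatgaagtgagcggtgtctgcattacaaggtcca
Glycam1: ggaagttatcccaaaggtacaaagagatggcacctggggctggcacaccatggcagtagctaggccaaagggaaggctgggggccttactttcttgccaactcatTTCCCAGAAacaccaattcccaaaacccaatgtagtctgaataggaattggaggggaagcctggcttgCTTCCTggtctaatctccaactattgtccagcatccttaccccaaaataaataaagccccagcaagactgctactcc
Pigr: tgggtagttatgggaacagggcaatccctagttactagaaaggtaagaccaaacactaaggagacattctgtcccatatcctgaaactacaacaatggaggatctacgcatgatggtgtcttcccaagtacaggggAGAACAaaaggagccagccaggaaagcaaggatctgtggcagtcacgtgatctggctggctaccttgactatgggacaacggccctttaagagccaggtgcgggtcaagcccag

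The letters AGGAAG were found in 5 of the 7 windows, those of Wap, Wfdc18, Lalba, Glycam1 and Ltf, while 29.5% of 32851 mouse promoter windows of this length held them. Wap held them at 2 places, starting 108 and 47 bases before the start used for its window. TTCNNNGAA was found in 1 window, that of Glycam1, 145 to 137 bases before the start, against 7.02% of all windows. TGTTCT was found in 1 window, that of Pigr, 114 to 109 bases before the start, against 16.1% of all windows. No match overlapped another. A match is a run of letters and not a measured binding site.

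The deposited signals are linear MAS5 intensities, and each array had a trimmed mean of 1500.8 or 1500.9 and a median between 540.6 and 583.4. Values below are signals. A positive log2 difference means higher in LH transgenic glands, 80.0 was added to each signal before the log was taken, and differences were tested with limma over 7453 probe sets and called at a Benjamini-Hochberg adjusted p under 0.05. The 3′ over 5′ signal ratio of actin, a sign of RNA quality, was 1.27, 2.09 and 1.44 in LH transgenic pools against 2.23, 2.13 and 2.02 in wild type pools, and that of Gapdh was 1.05 to 1.41 against 1.15 to 1.36. The actin ratios overlapped through LH transgenic pool 2, and their part in the results was not tested. The arrays were also read for marker lists, each gene by its most intense probe set. Of 14 epithelial keratin and junction genes measured, 10 were bright enough to be tested, and of these 3 were called higher and 1 lower. Their mean log2 level was 12.23, 12.29 and 11.93 in LH transgenic pools 1 to 3, and 11.76 to 12.03 in wild type pools. Krt18, picked after its value was seen, was at 13650 ± 1931 in LH transgenic and 13208 ± 1081 in wild type pools (SD, n = 3 each). The mean log2 level of the adipocyte list was 11.59 to 11.92 in LH transgenic and 12.76 to 13.02 in wild type pools. That of the skeletal muscle list was 9.96, 10.29 and 11.85 in LH transgenic pools 1 to 3, and 11.94 to 12.11 in wild type pools, so that LH transgenic pool 3 lay near the wild type pools. The 9 bacterial hybridisation controls, added in fixed amounts, averaged 13470, 16993 and 15168 in LH transgenic pools against 9069, 11804 and 9429 in wild type pools, without overlap. Fewer cells of a type and less RNA per cell cannot be told apart in such bulk samples.

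Of the 9 probe sets, all were bright enough to be tested, and 7, of 6 genes, were called higher in LH transgenic glands, where 10.5% of all tested probe sets were called higher and 21.3% in either direction. None was called lower by limma, against 10.8% of all tested, none was lower at an unadjusted p under 0.05 either, and 8 were higher at that unadjusted level. Over all 7453 tested probe sets, 2593 had an unadjusted limma p under 0.05 in either direction. Of the 9, 7 had LH transgenic signals entirely above the wild type ones, against 20.6% of all tested probe sets, and none had them entirely below, against 19.8%. At least 2-fold higher and called were 6 of the 9, against 2.88% of all tested. The genes that rose were Wap, Wfdc18, Glycam1, Cel, Folr1 and Pigr. Lalba and Ltf did not pass the test. The median log2 difference of the 9 probe sets was 1.62, beside 0.02 over all 7453.

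**Figure D1:**
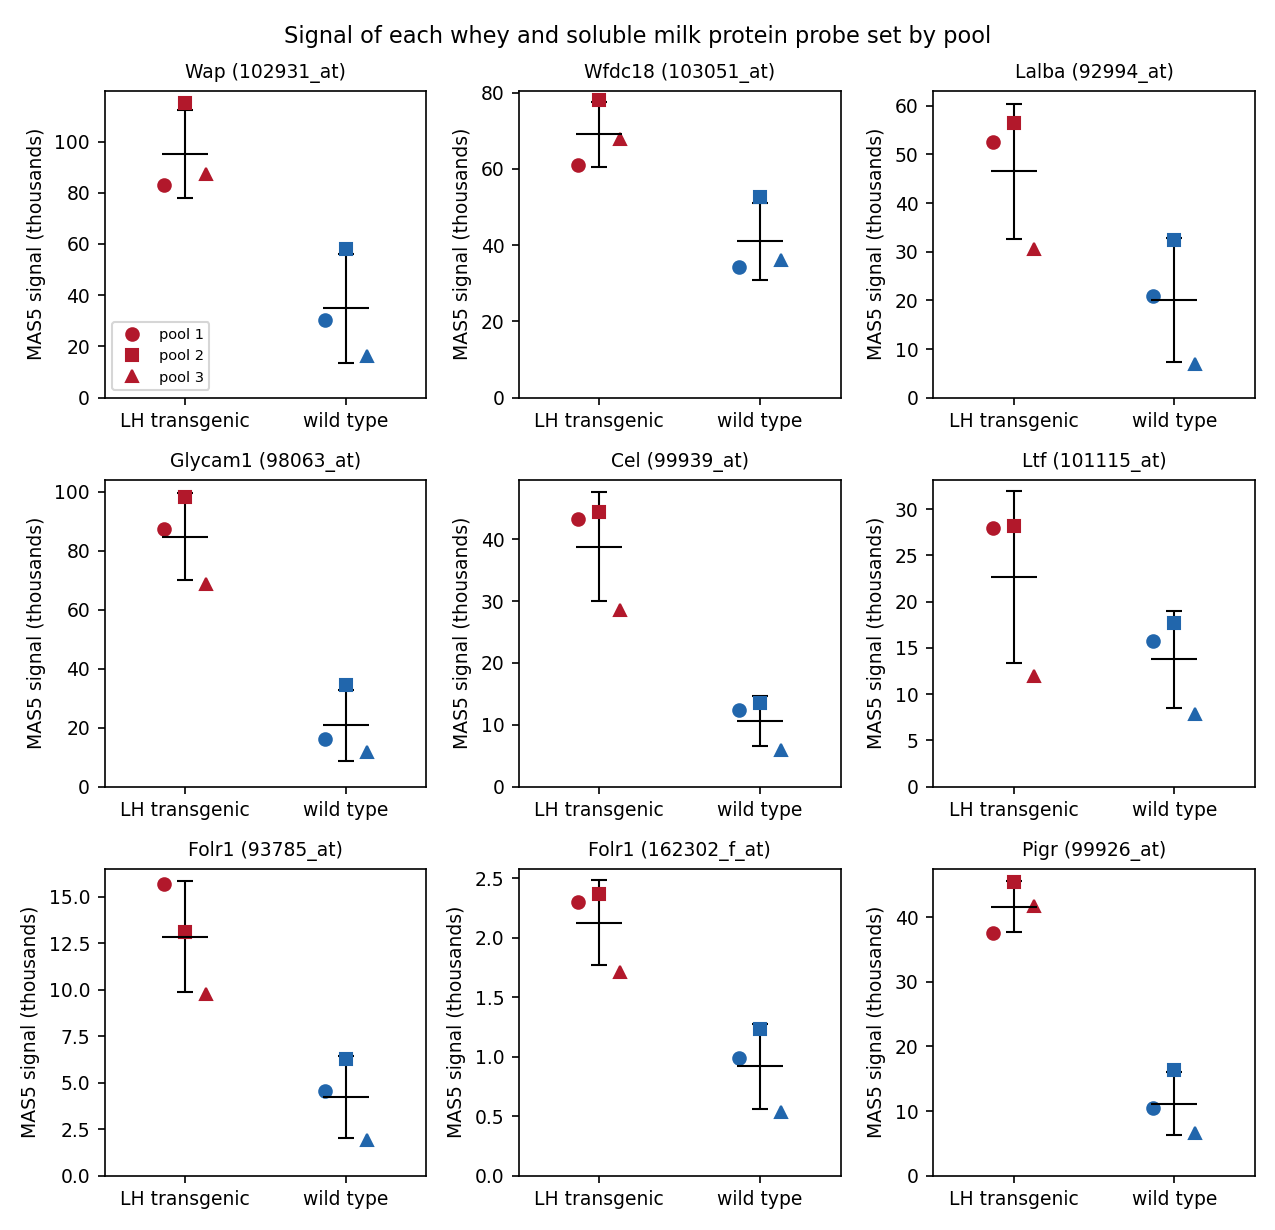
MAS5 signal (linear y axis from 0, in the multiple the axis states) of each probe set in the 3 LH transgenic pools and, to their right, the 3 wild type pools, 1 marker per pool and a bar at the group mean. The LH transgenic pools lie above all wild type pools in every panel except those of Lalba and Ltf, and wild type pool 2 is the highest wild type pool in all 9.

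Whey acidic protein, encoded by Wap (chr11:6635483-6638654, GRCm38.p6), is the major whey protein of mouse milk. Its signal was 82895.6, 114865.9 and 87499.2 in LH transgenic pools 1 to 3, against 30510.5, 58156.7 and 16217.8 in wild type pools 1 to 3. All LH transgenic pools were above all wild type pools, and the wild type pools themselves spread 3.59-fold, while the LH transgenic pools spread 1.39-fold. The mean was 95087 ± 17283 in LH transgenic and 34962 ± 21321 in wild type glands (SD, n = 3 each), a log2 difference of 1.62 (SE 0.37, 95% interval 0.79 to 2.44, limma adjusted p 0.0134), or 3.06-fold. With robust variance moderation the same difference had an adjusted p of 0.0587 and was not called.

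Wfdc18 (chr11:83709004-83711360) encodes a small secreted protein with a WAP-type core, first described as an extracellular peptidase inhibitor of mammary epithelium. Its signal was 61119.8, 78214.1 and 67814.9 in LH transgenic pools, against 34333.7, 52556.0 and 36085.2 in wild type pools. The groups did not overlap, and the wild type pools spread 1.53-fold, with pool 2 apart from the other pair. The log2 difference was 0.77 (SE 0.17, 95% interval 0.39 to 1.15, adjusted p 0.012), or 1.71-fold. The call rested on the scale: it was lost after quantile normalization (0.38, adjusted p 0.0904), after centring on epithelial genes (0.53, adjusted p 0.137) and on the scale of the bacterial controls (0.18, adjusted p 0.359), and it was also lost without wild type pool 3 (0.69, adjusted p 0.0527).

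Of 5 other tested genes that encode WAP domain proteins or other protease inhibitors, of whatever fold, 2 rose and none fell. At an unadjusted limma p under 0.05, 3 were lower, and the median log2 difference was -0.30. Wfdc12, a small WAP domain protein, had 9180.1, 9038.0 and 2059.0 in LH transgenic pools, against 1741.2, 1663.3 and 1284.1 in wild type pools (log2 1.79, adjusted p 0.0255). Pools 1 and 2 were high, and pool 3 was above the wild type pools by a small margin. Spint1, a membrane-bound inhibitor of epithelial serine proteases, averaged 2849 ± 526 in LH transgenic and 1703 ± 266 in wild type glands (log2 0.71, adjusted p 0.0165), and was 0.14 and not called on the bacterial control scale, where 1 of the 5 was higher and 3 were lower.

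Alpha-lactalbumin, encoded by Lalba (chr15:98480400-98482934), binds the galactosyltransferase of the Golgi and turns it to lactose synthesis. Lalba had 52487.6, 56487.1 and 30536.5 in LH transgenic pools, against 20983.1, 32406.2 and 6962.4 in wild type pools. LH transgenic pool 3 lay just below wild type pool 2, so that the groups overlapped, and the wild type pools spread 4.65-fold. The means were 46504 ± 13972 and 20117 ± 12744 for LH transgenic and wild type glands (SD, n = 3 each). The log2 difference of 1.41 (SE 0.47, 95% interval 0.35 to 2.47) had an adjusted p of 0.0607 and was not called. Without wild type pool 2 it was 1.89 and called (adjusted p 0.017), and without wild type pool 3 it was 0.78 (adjusted p 0.108). On the bacterial control scale it was 0.82 and called (limma adjusted p 0.000477). The SE there was 0.20, against 0.47 as deposited. Limma leaned on a variance shared over probe sets on that scale, so the call rests little on the spread of Lalba itself.

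The other genes of lactose synthesis, which supply glucose and the sugar nucleotides, gave 9 tested members, of which none rose and 2 fell, with 4 higher and 2 lower at an unadjusted p under 0.05. Their median log2 difference was 0.21, and it was -0.04 after centring on epithelial genes and -0.39 on the bacterial control scale. Hexokinase 2 (Hk2), which phosphorylates glucose, averaged 2049 ± 773 in LH transgenic and 4338 ± 291 in wild type glands (log2 -1.11, adjusted p 0.00741). Phosphoglucomutase 1 (Pgm1) averaged 6733 ± 510 in LH transgenic and 13701 ± 1630 in wild type glands (log2 -1.01, adjusted p 0.00113). Both enzymes are also used by muscle and fat, whose list levels were lower in the LH transgenic pools as given above, and their part in these differences was not tested. B4galt1, the galactosyltransferase that alpha-lactalbumin binds, had 4674.0, 6268.2 and 3518.2 in LH transgenic pools, against 4582.7, 7621.1 and 5975.4 in wild type pools. Its groups overlapped, and its log2 difference of -0.33 was not called (adjusted p 0.344).

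Glycam1 (chr15:103562759-103565081) encodes a mucin-like protein that is secreted into milk by mammary epithelium and that is also made by the high endothelium of lymph nodes, where it carries sugars bound by L-selectin. Its signal was 87273.4, 98213.3 and 68822.3 in LH transgenic pools, against 16055.7, 34337.2 and 11848.1 in wild type pools. The lowest LH transgenic pool was above the highest wild type pool, which was pool 2. The means were 84770 ± 14855 in LH transgenic and 20747 ± 11956 in wild type glands (SD, n = 3 each). The log2 difference was 2.16 (SE 0.33, 95% interval 1.43 to 2.89, adjusted p 0.00214), or 4.47-fold, and without any one array it lay between 1.83 and 2.60 and stayed called. Of the genes shown above, Glycam1 was the one whose window held TTCNNNGAA.

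Mammary glands can hold lymph node tissue, so markers of high endothelium were read beside Glycam1. Of 6 measured, 1 was bright enough to be tested, and the summed signal of the list was 1538 to 2264 in LH transgenic and 1459 to 2030 in wild type pools, so that the groups overlapped. Madcam1, an adhesion molecule of high endothelium and mucosal vessels, was the tested one and averaged 1224 ± 365 in LH transgenic and 631.8 ± 215.7 in wild type glands (log2 0.88, adjusted p 0.0355). It was not called after centring on epithelial genes or on the bacterial control scale. No T cell gene of the 3 tested was called by limma in either direction as deposited, and none reached an unadjusted p under 0.05; 1 was called lower on either of those scales.

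Cel (chr2:28555819-28563403) encodes bile salt-stimulated lipase, an enzyme of the exocrine pancreas and of milk. Its signal was 43256.8, 44456.2 and 28619.4 in LH transgenic pools, against 12476.9, 13509.4 and 5986.2 in wild type pools. The groups were apart, and pool 3 was the lowest of each group. The means were 38778 ± 8818 in LH transgenic and 10658 ± 4078 in wild type glands (SD, n = 3 each). The log2 difference was 1.91 (SE 0.29, 95% interval 1.26 to 2.57, adjusted p 0.00229), or 3.77-fold.

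Genes of the pancreatic acinus, the enzyme-making cells of that organ, were read beside Cel. Of 8 measured, 2 were bright enough to be tested and neither was called, with 1 lower at an unadjusted p under 0.05 and called lower under either other scale. The summed signal of the list was 2574 to 3632 in LH transgenic and 3243 to 3302 in wild type pools. The trypsinogen gene Prss2 was at 28.0 to 79.7 in LH transgenic and 29.5 to 31.9 in wild type pools. Pnliprp1, likewise too dim to be tested, was at 50.3 to 74.0 against 23.4 to 47.7. Ctrb1 and Clps also had higher means in LH transgenic pools, while Cela1, Reg1, Cela2a and Zg16 had lower ones. The other lipases, which act on stored fat or on fat in blood, gave 4 tested members of which 3 fell and none rose (median log2 -0.80). Hormone-sensitive lipase (Lipe) averaged 4996 ± 617 in LH transgenic and 13556 ± 2628 in wild type glands (log2 -1.41, adjusted p 0.000725). The triglyceride lipase Pnpla2 averaged 19649 ± 3976 in LH transgenic and 38811 ± 3659 in wild type glands (log2 -0.996, adjusted p 0.00299), and lipoprotein lipase (Lpl) had a log2 difference of -0.61 (adjusted p 0.00383). A second probe set of Lpl had 0.29 and was not called (adjusted p 0.192). Lipe, Pnpla2 and Lpl are genes of fat cells, and 10 of the 13 tested adipocyte markers fell, Lipe itself being one of them. The part of fat cell content in the lipase differences was not tested.

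Lactoferrin, encoded by Ltf (chr9:111019292-111042766), binds iron in milk and mucosal secretions and withholds it from bacteria. Its signal was 27954.3, 28190.4 and 11970.7 in LH transgenic pools, against 15775.0, 17713.4 and 7819.1 in wild type pools. LH transgenic pools 1 and 2 were above every wild type pool, but LH transgenic pool 3 was below wild type pools 1 and 2. The means were 22705 ± 9297 in LH transgenic and 13769 ± 5243 in wild type glands (SD, n = 3 each). The log2 difference of 0.70 (SE 0.37, 95% interval -0.13 to 1.53) was not called (adjusted p 0.212). Without LH transgenic pool 3 it was 1.11 and called (adjusted p 0.0347).

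Lactoferrin is also stored in neutrophil granules. Of 13 granule genes measured, 6 were tested and 1 rose, S100a8, which averaged 840.4 ± 157.7 in LH transgenic and 363.9 ± 112.0 in wild type glands (log2 1.07, adjusted p 0.0104). It was not called after centring on epithelial genes (adjusted p 0.0728) or on the bacterial control scale (adjusted p 0.0906), where 3 of the 6 were lower. The summed signal of the list was 23419 to 39182 in LH transgenic and 12194 to 23802 in wild type pools, and Lcn2 made up most of it. The myeloperoxidase gene Mpo was at 165.4 or lower and Ngp, a neutrophil granule protein, at 82.0 or lower on every array. Among 8 tested genes for other secreted defence proteins 4 rose and none fell (median log2 0.94). Saa3, a serum amyloid protein made outside the liver, had 7372.1, 10170.6 and 3354.5 in LH transgenic pools against 1495.7, 1270.3 and 660.2 in wild type pools (log2 2.46, adjusted p 0.00273). Defb1, an epithelial antimicrobial peptide, averaged 945.2 ± 193.9 in LH transgenic and 280.9 ± 111.5 in wild type glands (log2 1.54, adjusted p 0.00364). Lysozyme 2 (Lyz2), an enzyme of macrophages, averaged 16602 ± 1084 in LH transgenic and 8339 ± 2312 in wild type glands (log2 1.02, adjusted p 0.00523), and 6 of 13 tested macrophage markers rose. After centring on epithelial genes 3 of these markers were called higher, and on the bacterial control scale none was higher and 1 was lower, with Lyz2 at 0.43 (adjusted p 0.0862).

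Of 8 tested genes that handle iron in cells and plasma, 4 rose and 2 fell, with a median log2 difference of 0.62 that was 0.04 on the bacterial control scale. Ferritin heavy chain (Fth1), which stores iron, averaged 62111 ± 13917 in LH transgenic and 36766 ± 3855 in wild type glands (log2 0.73, adjusted p 0.0145). Haptoglobin (Hp), which binds free haemoglobin and is also made by fat, averaged 4367 ± 1799 in LH transgenic and 10114 ± 1584 in wild type glands (log2 -1.26, adjusted p 0.00823). Hfe, a regulator of iron uptake, had a log2 difference of -0.73 (adjusted p 0.00764). The transferrin receptor Tfrc averaged 4167 ± 621 in LH transgenic and 2535 ± 714 in wild type glands (log2 0.72, adjusted p 0.0311). It was picked after its values were seen, as the receptor of the missing Trf product. Fth1 and Tfrc were not called after centring on epithelial genes or on the bacterial control scale.

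Folr1 (chr7:101858331-101870788) encodes the folate receptor alpha, a membrane-anchored protein whose soluble form is the folate-binding protein of milk. The first of its probe sets had 15679.5, 13087.7 and 9740.2 in LH transgenic pools, against 4524.8, 6272.6 and 1910.5 in wild type pools. The second had 2297.6, 2363.4 and 1712.4 in LH transgenic pools, against 987.8, 1230.2 and 533.4 in wild type pools. In both, the groups were apart, pool 3 was the lowest of each group and wild type pool 2 was the highest of its group. The log2 differences were 1.71 (SE 0.37, 95% interval 0.89 to 2.53, adjusted p 0.0103) and 1.2 (SE 0.26, 95% interval 0.61 to 1.79, adjusted p 0.0116), or 3.27-fold and 2.30-fold. The identifier of the second carries the mark that Affymetrix gives to probe sets whose probes can match related sequences.

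Of 9 other folate genes tested, none rose and 2 fell, with 1 higher at an unadjusted p under 0.05, and their median log2 difference was 0.19, which turned to -0.05 after centring on epithelial genes and to -0.37 on the bacterial control scale. The reduced folate carrier Slc19a1 had 703.6, 337.2 and 561.0 in LH transgenic pools, against 1592.3, 1487.2 and 1829.6 in wild type pools. All LH transgenic pools were below all wild type pools (log2 -1.53, SE 0.23, adjusted p 0.00203), and a second probe set of Slc19a1 had -0.62 (adjusted p 0.0844). Ggh, which trims the glutamate tail of stored folate, averaged 539.7 ± 102.6 in LH transgenic and 947.8 ± 201.6 in wild type glands (log2 -0.72, adjusted p 0.0307). The proton-coupled folate transporter Slc46a1, chosen for its role after its values were seen, averaged 929.7 ± 179.1 in LH transgenic and 797.9 ± 88.4 in wild type glands (log2 0.19, adjusted p 0.487).

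The polymeric immunoglobulin receptor, encoded by Pigr (chr1:130826684-130852249), binds dimeric IgA and pentameric IgM at the base of the epithelium and releases them into the secretion. Its signal was 37588.3, 45472.8 and 41808.1 in LH transgenic pools, against 10508.0, 16277.3 and 6595.9 in wild type pools. The LH transgenic pools lay within 1.21-fold of each other and well above the wild type pools, which spread 2.47-fold. The means were 41623 ± 3946 in LH transgenic and 11127 ± 4870 in wild type glands (SD, n = 3 each). The log2 difference was 1.99 (SE 0.27, 95% interval 1.39 to 2.58, adjusted p 0.00132), or 3.96-fold, and it lay between 1.66 and 2.31 without any one array.

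The genes of the antibodies that the receptor carries were not called. Igha, the heavy chain of IgA, had 7221.3, 3319.7 and 4383.3 in LH transgenic pools, against 8172.0, 4740.7 and 3409.0 in wild type pools, with overlapping groups (log2 -0.11, adjusted p 0.855). Jchain, which joins IgA and IgM into polymers, averaged 1267 ± 495 in LH transgenic and 1253 ± 403 in wild type glands (adjusted p 0.993). Igha and Jchain were chosen for their role after their values were seen, and a miss of the threshold does not show that levels were equal. Of the 4 tested genes of antibody transport, B2m alone rose. It encodes the light chain shared by MHC class I and the neonatal Fc receptor, and it averaged 51204 ± 9270 in LH transgenic and 34007 ± 3832 in wild type glands (log2 0.58, adjusted p 0.0255). B2m was -0.01 on the bacterial control scale. Fcgrt, the gene of the other chain of the neonatal Fc receptor, was too dim to be tested. It was at 76.4 to 180.5 in LH transgenic and 111.1 to 342.5 in wild type pools.

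**Figure D2:**
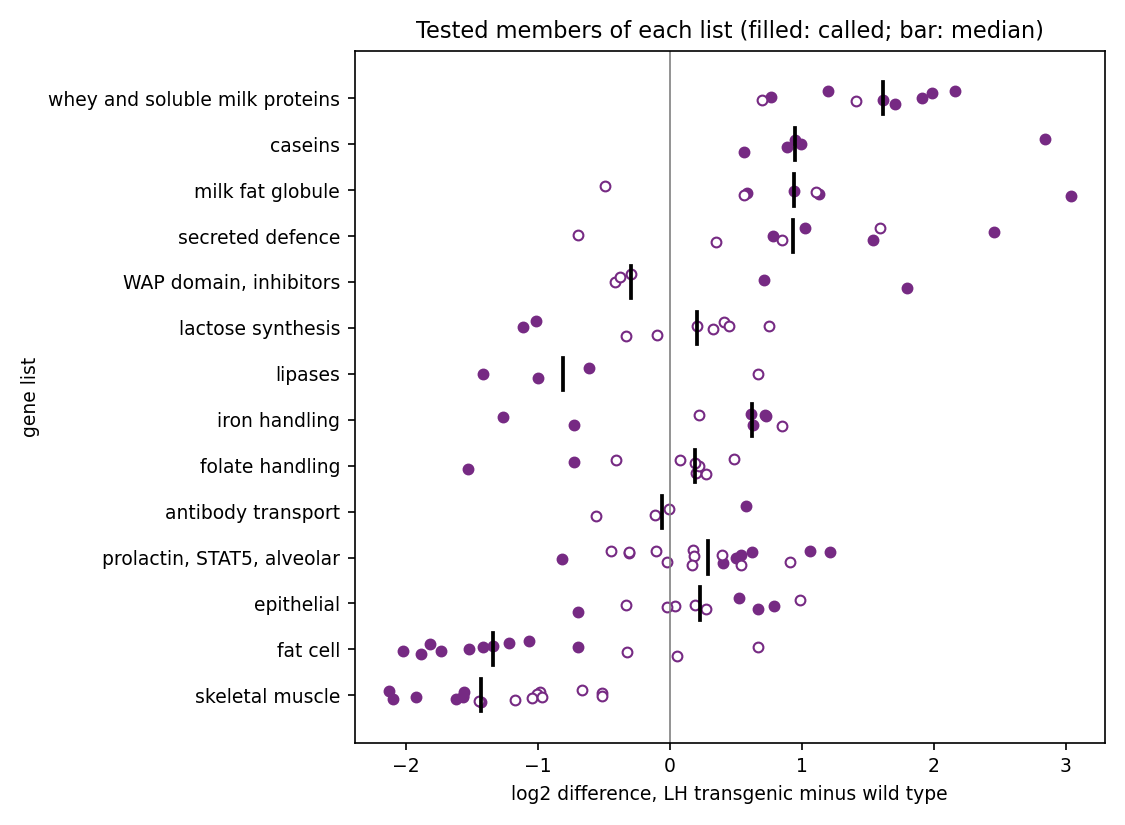
Log2 difference, LH transgenic minus wild type (x axis), of each probe set of the whey and soluble milk protein group (top) and of each tested gene in the other lists, with filled points for those called and a bar at each list's median. The whey group has its median at 1.62, the lipases at -0.80, the folate genes at 0.19 and the antibody transport genes at -0.06.

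Beside these, all 5 casein genes rose, with a median log2 difference of 0.95. Csn1s2b averaged 3530 ± 1990 in LH transgenic and 412.9 ± 291.2 in wild type glands (log2 2.84, adjusted p 0.00631), Csn3 had a difference of 0.99 (adjusted p 0.00663) and Csn1s2a of 0.95 (adjusted p 0.00169). Of 7 tested genes of the milk fat globule, 4 rose and none fell. They included the fatty acid carrier Fabp3 (log2 3.04, adjusted p 0.00253), the droplet membrane enzyme Xdh (1.13, adjusted p 0.0114) and the droplet coat protein Plin2 (0.94, adjusted p 0.00162). On the bacterial control scale 2 caseins were called higher, and 3 fat globule genes were higher and 1 lower.

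Among 18 tested genes of prolactin signalling and alveolar fate, 6 were called higher and 1 lower, with a median of 0.29. After centring on epithelial genes 1 was higher and 1 lower, and on the bacterial control scale 1 was higher and 6 were lower, with a median of -0.25. Elf5, the ETS factor named above, had 28175.9, 30300.6 and 38743.7 in LH transgenic pools, against 17485.4, 17691.3 and 8466.0 in wild type pools (log2 1.21, adjusted p 0.0111). LH transgenic pool 3 was the highest for Elf5, while for Lalba, Cel, Ltf, Glycam1 and Folr1 it was the lowest of its group. Id2, an inhibitor of basic helix-loop-helix factors needed for alveolar growth, had a difference of 1.07 (adjusted p 0.0167) and was not called after epithelial centring (adjusted p 0.086) or on the bacterial control scale (adjusted p 0.0696). The transcription factor gene Nfix counts as the one lower, with -0.81 (adjusted p 0.00796), but a second probe set of it had 1.35 in the opposite direction (adjusted p 0.00153), so no direction is given for it. Among 10 tested epithelial keratin and junction genes 3 rose and 1 fell, the tight junction genes Cldn3 (0.79, adjusted p 0.00464) and Cldn7 (0.67, adjusted p 0.00654) being among those that rose and Krt7 (-0.69, adjusted p 0.0113) the one that fell. On the bacterial control scale none of the 10 was called higher and 4 were lower, with Cldn3 at 0.20 and Cldn7 at 0.09, neither called. Krt18 had a difference of 0.04 as deposited (adjusted p 0.87).

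The whey genes varied together among the pools of each group. Wild type pool 2 was the highest wild type pool for 9 of the 9 probe sets, a place it held for 31.9% of all tested probe sets. Wild type pool 3 was the lowest for 8 of 9, against 35% of all, and the exception was Wfdc18. LH transgenic pool 2 was the highest of its group for 8 of 9, against 31.3% of all, and LH transgenic pool 3 the lowest for 6 of 9, against 34.5%. The probe sets were measured on the same arrays, so these counts share their source. The order was not particular to the whey genes. Wild type pool 2 was also the highest wild type pool for each casein gene. Csn3, for example, had 39882.0, 54170.2 and 30734.3 in wild type pools 1 to 3. Among fat globule genes, wild type pool 2 was the highest wild type pool for Fabp3 and Plin2 but not for Xdh.

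The spread among pools was larger in wild type than in LH transgenic glands for 8 of the 9 probe sets, Ltf being the exception. The log2 range over the 3 LH transgenic pools had a median of 0.51 over the 9 probe sets, against 0.40 over all tested. Over the wild type pools it had a median of 1.29, against 0.30 over all tested. For 8 of the 9 the wild type range was larger than that of 97.3% to 99.7% of tested probe sets, and for Wfdc18 it was larger than that of 85.5%. Among LH transgenic pools Pigr had a range of 0.27, larger than 30.6% of tested probe sets, and Ltf one of 1.23, larger than 97.2%. The signal of wild type pool 2 over the mean of wild type pools 1 and 3 was 2.49 for Wap, 2.46 for Glycam1, 2.32 for Lalba and 1.46 for Cel, beside a median of 0.99 over all tested probe sets.

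**Figure D3:**
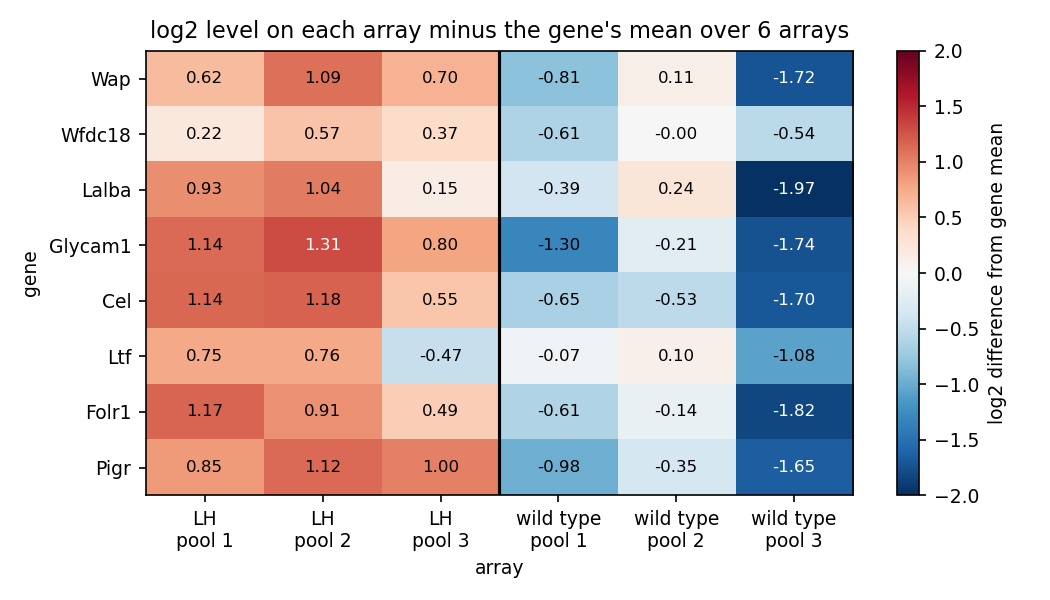
Colour map of the log2 level of each gene (y axis, the brighter probe set for Folr1) on each array minus that gene's mean over the 6 arrays, with the 3 LH transgenic pools left of the 3 wild type pools. Wild type pool 3 is the lowest wild type pool in each gene but Wfdc18, and Ltf is the gene in which LH transgenic pool 3 falls below its mean.

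Whether the genes differed in how far they moved was tested in pairs. For each of 28 pairs of the 8 genes the log2 ratio on each array was compared between the groups with a two-sided exact permutation test, which cannot go below 0.1 with 3 arrays a group. In 11 pairs the ratios did not overlap between groups and p was 0.1, or 0.255 after adjustment over the 28 pairs, so that none passed. The values are therefore given as a description. The difference of Glycam1 minus that of Wap was 0.54 on the log2 scale (95% interval 0.03 to 1.06), minus that of Wfdc18 1.39 (0.50 to 2.28) and minus that of Ltf 1.46 (0.40 to 2.52). It was 1.21 for Pigr minus Wfdc18 (0.52 to 1.91) and 1.21 for Cel minus Ltf (0.65 to 1.78). The WAP domain genes Wap and Wfdc18 differed by 0.84 (-0.25 to 1.94). Wap and Lalba differed by 0.20 (-0.67 to 1.08, exact permutation p 0.6), and Wfdc18 and Ltf by 0.07 (-1.36 to 1.5, exact permutation p 0.9), intervals that leave room for differences in either direction.

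The scaling of the arrays sets the size of these differences. Dividing each array by its bacterial controls moved the median of all tested probe sets to -0.53, against 0.02 as deposited, and 5.08% of 3561 calls were then higher, against 49.2% of 1586. On that scale 7 of the 9 probe sets were still called higher, with Lalba in and Wfdc18 out, and the differences were 1.57 for Glycam1, 1.39 for Pigr, 1.32 for Cel, 1.13 and 0.65 for Folr1, 1.02 for Wap, 0.82 for Lalba, 0.18 for Wfdc18 and 0.11 for Ltf. The SE was smaller there than as deposited for each of the 9, for example 0.20 against 0.47 for Lalba. Limma leaned there on a variance shared over probe sets, so these calls rest little on the spread of each gene itself. Centring each array on its epithelial genes moved the median of all to -0.22, with 17.1% of 1308 calls higher, and 6 of the 9 were called. The differences were then 1.92 for Glycam1, 1.74 for Pigr, 1.67 for Cel and 1.37 for Wap. None of the 9 turned below 0 under either scale.

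**Figure D4:**
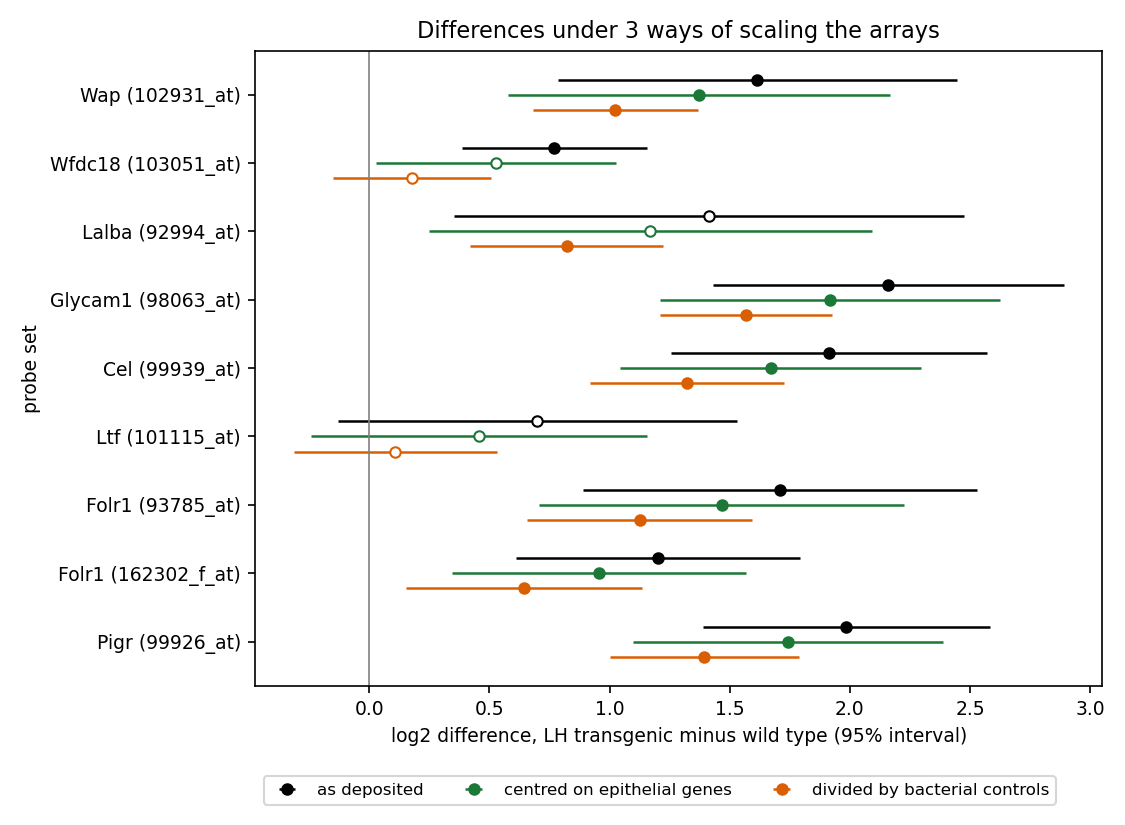
Log2 difference, LH transgenic minus wild type (x axis), with its 95% interval for each of the 9 probe sets under 3 scalings: as deposited, centred on epithelial genes, and divided by the bacterial controls; filled points were called. Glycam1, Pigr, Cel, Wap and both Folr1 probe sets are filled under all 3, Wfdc18 as deposited only, Lalba on the bacterial control scale only and Ltf under none.

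Skeletal muscle markers set LH transgenic pool 3 apart from pools 1 and 2. In that pool, whose muscle level lay near the wild type pools, the signals of Wap, Wfdc18, Glycam1, Cel, Folr1 and Pigr were above every wild type pool. For these genes that already follows from the lack of overlap given above. Lalba in LH transgenic pool 3 (30536.5) was below wild type pool 2 (32406.2). Ltf there (11970.7) was below wild type pools 1 and 2 (15775.0 and 17713.4). This is a reading of 1 pool, and the part of muscle content in the differences was not tested by it. The adipocyte level did not overlap between the groups, and it cannot be told apart from genotype in these 6 arrays. With the muscle level as a covariate 1 of the 9 probe sets was called, that of Pigr, and with the adipocyte level none was, nor was any probe set of the whole array (564 of them had an unadjusted p under 0.05).

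The pattern of Wap over the 6 arrays was compared with that of 6737 probe sets of other genes by the root mean square difference of log2 values centred on each probe set. The nearest was a probe set of Ceacam10, an immunoglobulin family gene related to the carcinoembryonic antigens, at 0.22, with 1225.6, 2007.3 and 1968.5 in LH transgenic pools against 510.5, 766.3 and 215.7 in wild type pools. The third nearest was Slc34a2, a sodium phosphate cotransporter of epithelia, at 0.28, with 2500.2, 3287.6 and 2203.4 in LH transgenic pools against 1225.0, 1479.7 and 589.6 in wild type pools. Both probe sets were called higher (limma adjusted p 0.0078 and 0.0129), as the measure of likeness includes the difference between groups. A second tested probe set of Ceacam10 had a log2 difference of 0.67 and was not called (adjusted p 0.0795). By the same measure Pigr lay at 0.26 from Wap, Folr1 at 0.29, Glycam1 and Lalba at 0.33, Cel at 0.35, Wfdc18 at 0.58 and Ltf at 0.64.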

How the data were processed

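The values the authors deposited are linear intensities, 1 per probe set and array. The submitters' processing notes name MAS5 for them, and its version, its detection calls and a genome build are not given here. Because MAS5 brings all arrays to a common target, these values cannot show a shift shared by most genes. The table held 12488 probe sets, 66 of them controls, and 10833 had 1 gene in the platform annotation. Groups came from the labels' source name, and replicate numbers are names only.

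The deposited intensities were put on the log2 scale after adding 80.0 (their 20th percentile). Probe sets averaging 336.0 or more (40th percentile of means), 7453 in number, were tested with limma (lmFit, eBayes with a trend) without covariates, adjusted over all 7453. Log2 folds of dim genes are understated. The fit was tested on simulated data. Alternatives were quantile normalization, median, epithelial and bacterial control scaling, other pseudocounts (16.8 as a floor, 325.5), no filter or one of 933.0, eBayes without a trend or robust, arrayWeights, marker covariates, 1 probe set a gene, and leaving out each array. With 3 arrays per group, that number sets the precision.

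The whey genes and all gene lists were chosen with earlier results of these data known. Named genes are all list members of the whey group, up to 3 called genes per other list by size, and the 3 probe sets nearest to Wap, the second of which is not reported here; B4galt1, Tfrc, Slc46a1, Igha, Jchain, Krt18, Mpo, Ngp, Prss2, Lcn2 and Saa2 were chosen after their values were seen. Tables and figures were made in Python 3.11.15 with scipy 1.17.1, matplotlib 3.10.9, numpy 2.4.6 and pandas 2.3.3, and models were fitted in R 4.3.3 with statmod 1.5.0 and limma 3.58.1.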

Additional observations from a re-analysis of the deposited data

How the results depend on the processing

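The count of 7 whey probe sets called higher lay between 6 and 8 when each array was left out, and none was called lower. It was 1 with the skeletal muscle covariate and 0 with the adipocyte covariate. Calls over all tested probe sets numbered 941 to 1641 without 1 array (1056 if wild type pool 1 was left out and 941 if wild type pool 3 was), 3561 on the bacterial control scale, and 702 and 0 with the muscle and adipocyte covariates. With the adipocyte covariate Wap (-0.50) and Lalba (-0.0946) turned below 0, and with the muscle covariate Ltf did (-0.14); the adipocyte level separates the groups, which leaves little to estimate (SE 1.60 for Wap). Glycam1, Cel, Pigr and both Folr1 probe sets kept their calls under the other alternatives run for them (the second Folr1 probe set has no value where 1 probe set stands for a gene). With the muscle covariate the adjusted p was 0.0521 for Glycam1, 0.0624 for Cel, 0.123 for Wap and 0.164 for the first Folr1 probe set. No paired analysis was possible because the labels give no replicate numbers that the groups share. The spread between 3 pools limits what can be called.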

Other observations

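Some secretory genes were low in LH transgenic pool 3 relative to pools 1 and 2, and they were picked after their values were seen. The signal of pool 3 over the mean of pools 1 and 2 was 0.43 for Ltf, 0.56 for Lalba and 0.65 for Cel. It was 0.22 for Saa2, a serum amyloid gene read by its more intense probe set, 0.23 for Wfdc12, 0.27 for Csn1s2b, 0.38 for Saa3 and 0.62 for Lcn2, an iron-siderophore binding protein, likewise. The same ratio was 1.01 for Pigr, 0.99 for Csn2, 0.97 for Wfdc18 and 0.89 for Wap, and its median over all tested probe sets was 1.01. Saa2 had 26082.9, 27269.8 and 5753.6 in LH transgenic pools against 6314.3, 7896.7 and 2888.3 in wild type pools (log2 1.59, adjusted p 0.0716). Lcn2 had 30070.8, 35871.6 and 20417.5 in LH transgenic pools against 18222.8, 20863.2 and 9801.8 in wild type pools (log2 0.85, adjusted p 0.0606).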
